A study of Mus musculus with 24 samples.

Results

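The genes described here are 9 members of the EGF family and its receptors: the ligand genes Egf, Tgfa, Areg, Ereg, Btc and Hbegf, and the receptor genes Egfr, Erbb2 and Erbb3. They were chosen by name, as the rows of a count table whose gene ID carries one of these mouse symbols, and make up 9 of the 55421 genes in it. RNA was counted in 24 libraries from small intestinal crypts of 8 mice. The hom (knockout) animals BN45, BO25, BO57 and BP04 were Setd1aFC/FC with Lgr5-eGFP-CreERT2, and the het (control) animals BN44, BO27, BO58 and BP03 were Setd1aFC/+ with the same Lgr5-eGFP-CreERT2. Every animal, control or knockout, therefore carried the inducible Cre under Lgr5 and at least 1 FC allele of Setd1a, a histone methyltransferase gene, and every animal was injected with 1 mg tamoxifen on 3 days running. Crypts were taken 4 days after induction, and their cells were sorted with antibodies to EpCAM, CD24 and CD45 and a dead-cell stain into fractions labelled Paneth, stem and transit-amplifying (TA), 1 library of each fraction per animal. The 6 groups, hom and het Paneth, hom and het stem, hom and het TA, hold 4 libraries each. The labels give no age, and no file measures how many cells lost the gene.

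EGF family ligands are made as membrane-anchored precursors that metalloproteases such as ADAM17 cut free, and they bind receptor tyrosine kinases of the ERBB family on the same or a neighbouring cell. EGF, TGFα and amphiregulin bind EGFR; betacellulin, HB-EGF and epiregulin bind EGFR and ERBB4; ERBB2 has no known ligand and acts as a partner, and ERBB3 binds neuregulins and has little kinase activity of its own. Activated receptors feed the RAS-ERK and PI3K-AKT branches. In the intestinal crypt, EGF is a standard part of the medium that keeps stem cells dividing in organoids, and Paneth cells are known as a source of it.

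Library totals ran from 24.73 to 47.05 M counts, with 13.1% to 57.2% of a library in its 10 top genes. Setd1a, the targeted gene, was tested for hom over het in each fraction and passed in none of the 3. Its level was 4.86 to 7.31 CPM (counts scaled to library size, on 1 scale for all 24 libraries) in hom and 6.36 to 15.1 in het Paneth libraries, 3.72 to 6.91 in hom and 3.98 to 7.08 in het stem libraries, and 4.51 to 6.61 in hom and 3.43 to 6.74 in het TA libraries. Counts sum all exons, so loss of part of the gene need not show, and Setd1a here is no check on genotype. The 8 markers of Paneth cells, such as Lyz1 and Defa24, summed to at least 69449 CPM in every Paneth library and to at most 5107 CPM in any other library. Paneth libraries held transcripts of other cell types as well: the summed level of 7 enteroendocrine markers was 3400 to 8168 CPM in hom and 4175 to 7827 CPM in het Paneth libraries, against at most 469.9 CPM in stem and TA libraries. For 6 tuft markers the sums were 1013 to 2173 CPM in hom and 1426 to 2221 CPM in het Paneth libraries, against at most 7.56 CPM elsewhere. Of the 7 immune markers, Lyz2, which is also on the Paneth list, made up most of the sum in Paneth libraries. Ptprc, which encodes CD45, was at 25.6 to 42.8 CPM in hom and 21.9 to 34.6 CPM in het Paneth libraries, against at most 0.885 CPM elsewhere. Cd68 averaged 1.57 and 2.03 CPM in hom and het Paneth libraries, against 3.93 and 2.73 CPM in hom and het stem libraries, and Cd3e, Cd3g and Cd79a were at most 0.252 CPM in any Paneth library. Goblet markers were lowest in stem libraries: their sum over 6 genes was 3826 to 17502 CPM in hom and 1203 to 11541 CPM in het Paneth libraries, against 118 to 1098 CPM in hom stem, 116 to 630 CPM in het stem, 5064.5 to 12156 CPM in hom TA and 6197 to 15205 CPM in het TA libraries. By edgeR, 4 of the 6 were higher in Paneth than in stem libraries and 6 of 6 lower in stem than in TA libraries, in both genotypes. The part of these transcripts in any difference between fractions below was not tested. In sorted bulk RNA, fewer cells of a type and less RNA per cell cannot be told apart.

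All 9 genes are protein coding, and on GRCm38 (mm10) their spans in the count table equal those of GENCODE M21. Egf lies at chr3:129677565-129755316 on the minus strand and Tgfa at chr6:86195223-86275719 on the plus strand. Egfr at chr11:16752203-16918158 and Erbb2 at chr11:98412470-98437716 are both on the plus strand, and Erbb3 at chr10:128567523-128589652 is on the minus strand. Ereg, Areg and Btc are neighbours on chromosome 5. Ereg spans chr5:91074622-91093646 and Areg chr5:91139599-91148432 on the plus strand, 45.95 kb apart. Btc follows at chr5:91357261-91402994 on the minus strand, 208.8 kb beyond Areg.

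The promoters of Areg and Btc are shown because those genes carried, in turn, the widest spread between animals and one of the clearest differences between fractions; they were picked after the values were seen. RefSeq (GRCm38.p6) windows of 250 bases before to 50 after the start site were at hand for 6 of the 9 genes. Capitals mark matches to TGACGTCA, the palindrome bound by CREB and ATF proteins, to its core TGACG on either strand, and to TATAAA on the gene's strand or the other. The window of Areg is chr5:91139349-91139648 on the plus strand and that of Btc is chr5:91402945-91403244 on the minus strand.
Areg: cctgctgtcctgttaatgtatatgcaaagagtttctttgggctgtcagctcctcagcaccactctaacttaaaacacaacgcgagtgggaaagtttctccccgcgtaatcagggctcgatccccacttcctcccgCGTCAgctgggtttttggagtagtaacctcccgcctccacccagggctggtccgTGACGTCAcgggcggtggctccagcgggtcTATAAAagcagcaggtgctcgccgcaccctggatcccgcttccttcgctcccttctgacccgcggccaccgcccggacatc
Btc: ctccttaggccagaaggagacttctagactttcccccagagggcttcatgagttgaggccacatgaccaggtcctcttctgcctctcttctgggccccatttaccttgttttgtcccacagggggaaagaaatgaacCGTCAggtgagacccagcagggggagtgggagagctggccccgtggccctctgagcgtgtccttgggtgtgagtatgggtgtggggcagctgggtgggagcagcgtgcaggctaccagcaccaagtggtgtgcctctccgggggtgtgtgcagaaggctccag
In the Areg window TGACGTCA begins 61 bases before the start site and TATAAA 31 bases before it, and the core also matches on the opposite strand 115 bases before it. The core inside the palindrome is counted on both strands and overlaps it. The Btc window holds 1 core match on the opposite strand, 113 bases before the start site, and neither TGACGTCA nor TATAAA. Of all 32851 RefSeq windows of 300 bases, 1.79% held TGACGTCA, 20.8% held TGACG and 13.6% held TATAAA. The motif of AP-1, TGANTCA, was in 7.81% of them and in none of the windows of these 6 genes, of which Egf had more than 1. These are matches of letters, not sites of binding.

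**Figure D1:**
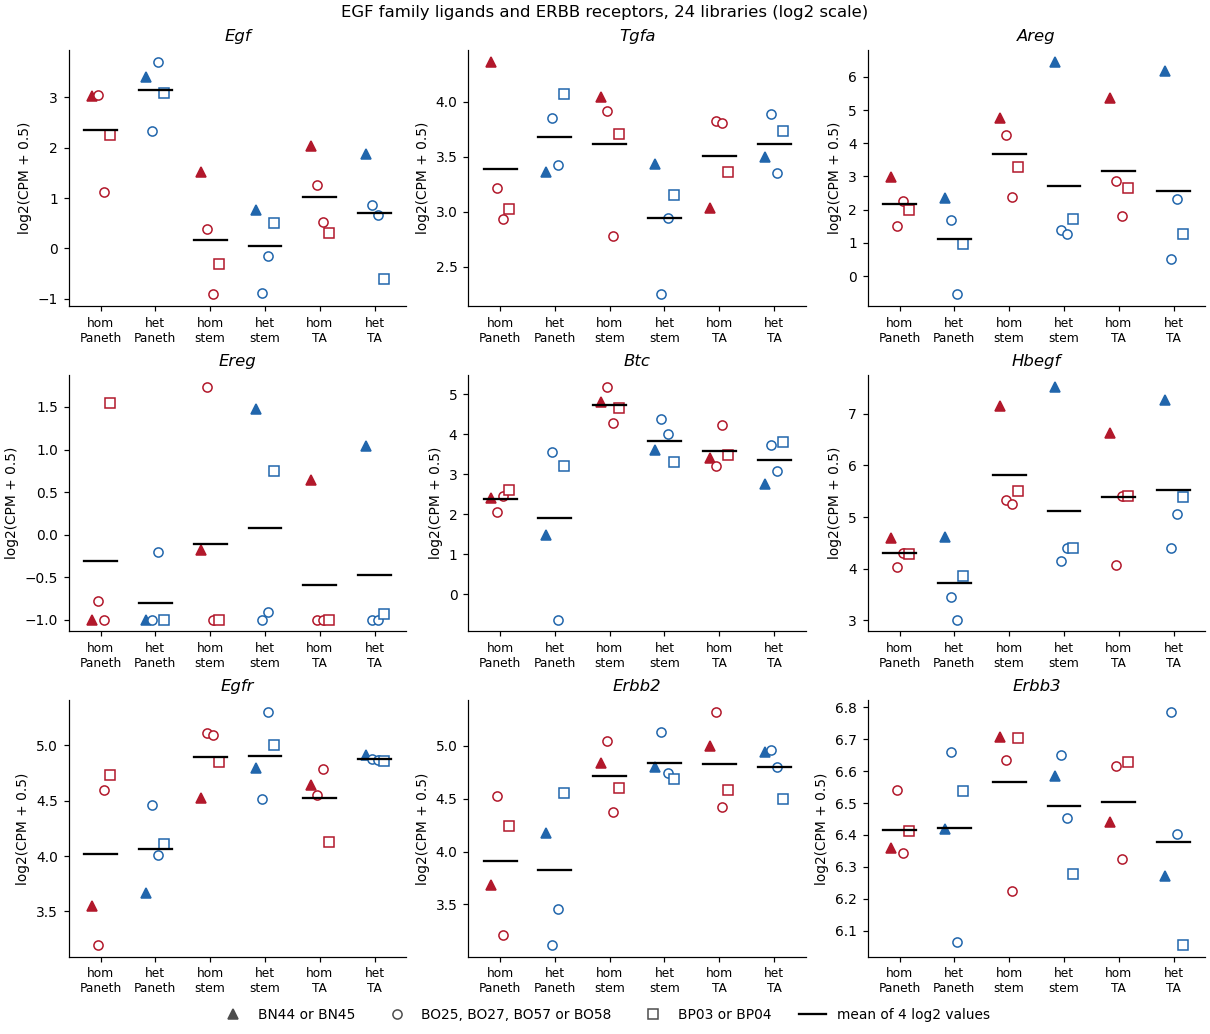
Level of each gene in each library as log2(CPM + 0.5), with 1 marker per library, hom in red and het in blue, and black bars at the mean of 4 log2 values. Filled triangles, the animals BN45 and BN44, stand above the other animals for Areg and Hbegf in stem and TA libraries, while Erbb3 stays between 66.0 and 109.8 CPM in every library.

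The levels of the members were compared per kilobase of exon. Hbegf averaged 4.02 ± 0.655 CPM per kilobase in hom Paneth, 2.89 ± 1.47 in het Paneth, 13.6 ± 10.5 in hom stem, 12.5 ± 17.0 in het stem, 10.3 ± 7.19 in hom TA and 12.8 ± 12.7 in het TA libraries (SD, n = 4 each). Areg per kilobase averaged 3.60 ± 1.78 in hom Paneth, 1.85 ± 1.55 in het Paneth, 12.2 ± 8.05 in hom stem, 19.4 ± 35.0 in het stem, 11.5 ± 14.5 in hom TA and 16.3 ± 28.5 in het TA libraries. In het stem libraries both SDs exceeded the means, and in all 6 groups the gap between the means of Areg and Hbegf was smaller than the larger of their SDs. The Areg means in het stem and TA libraries rest on BN44, since the 3 other het animals were at 1.58 to 2.31 CPM per kilobase in stem and 0.773 to 3.68 in TA libraries. In stem libraries Btc averaged 5.89 ± 1.57 CPM per kilobase in hom and 3.15 ± 1.05 in het animals. Tgfa stayed between 1.16 and 1.94 CPM per kilobase in the group means. Egf was at most 0.782 ± 0.302 and Ereg at most 0.211 ± 0.262 CPM per kilobase in any group. For the receptors, Erbb3 held between 63.7% and 76.9% of the sum of the 3 per kilobase, Erbb2 between 15.1% and 24.4%, and Egfr between 7.92% and 11.9% (group means). That order, Erbb3 above Erbb2 above Egfr, was the order of the means in all 6 groups.

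**Figure D2:**
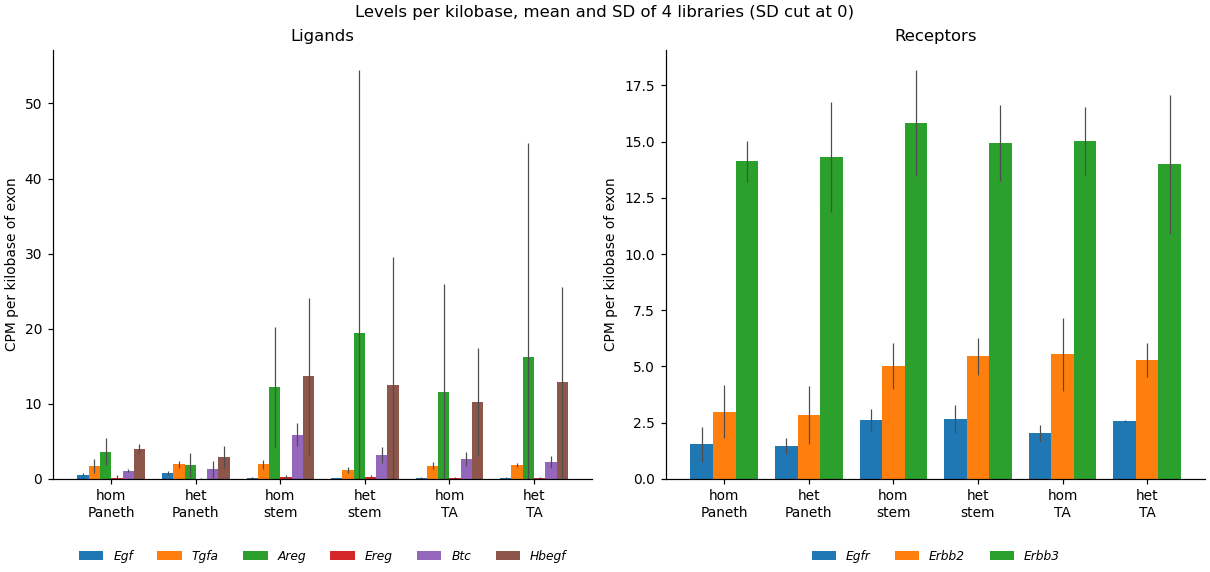
Mean level per kilobase of exon (CPM per kilobase, linear axis from 0) of the 6 ligand genes on the left and the 3 receptor genes on the right, with SD of 4 libraries as error bars. Erbb3 is the tallest receptor bar in every group, and the error bars of Areg and Hbegf reach down to or near 0 in the het stem and TA groups.

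Egf, which encodes the founding ligand, was higher in the Paneth fraction than in both other fractions of het animals. In the 4 het Paneth libraries it was at 10.1, 4.55, 12.6 and 8.05 CPM in BN44, BO27, BO58 and BP03, against 1.21, 0.0413, 0.397 and 0.913 CPM in the het stem libraries and 3.19, 1.33, 1.09 and 0.158 CPM in the het TA libraries of the same animals. All 4 het Paneth libraries lay above all het stem and TA libraries. The log2 fold change by the edgeR quasi-likelihood test was 3.81 for Paneth over stem (SE 0.81, adjusted p = 0.0062) and 2.64 for Paneth over TA (SE 0.74, adjusted p = 0.022), higher in 4 of 4 animals each. Over TA the call ended without BO27 (adjusted p = 0.056) or without BO58 (0.11). In hom animals Egf was at 7.71, 7.78, 1.66 and 4.25 CPM in the Paneth libraries of BN45, BO25, BO57 and BP04, against 2.37, 0.813, 0.0307 and 0.305 CPM in stem and 3.59, 1.88, 0.945 and 0.736 CPM in TA libraries. Each hom animal again had its highest value in the Paneth fraction, but the groups overlapped, and the log2 fold changes of 2.61 over stem (SE 1.01, edgeR adjusted p = 0.074) and 1.61 over TA (SE 0.66, edgeR adjusted p = 0.093) did not pass. With the animal as replicate block, which compares the fractions within each animal, both passed by edgeR, at 3.40 (adjusted p = 0.016) and 1.65 (adjusted p = 0.040), and DESeq2 without a block also called both (adjusted p = 0.012 and 0.041). Egf is a low transcript here: outside the Paneth fraction it had between 1 and 147 counts per library. On raw library totals, with no TMM scaling, the fold changes were smaller, 3.34 and 2.17 in het and 1.83 and 0.78 in hom animals over stem and over TA, and neither hom value passed (edgeR adjusted p = 0.15 and 0.37).

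Btc, which encodes betacellulin, was lower in the Paneth fraction than in both other fractions of hom animals. In hom stem libraries it was at 27.5, 35.8, 18.8 and 24.4 CPM in BN45, BO25, BO57 and BP04, in hom TA libraries at 10.1, 8.73, 18.3 and 10.6 CPM, and in hom Paneth libraries at 4.85, 3.67, 4.94 and 5.61 CPM. The 3 fractions did not overlap in hom animals: Paneth libraries were lowest and stem libraries highest, though the lowest stem and the highest TA library, both of BO57, were only 18.8 and 18.3 CPM. Paneth over stem gave a log2 fold change of -2.45 (SE 0.28, edgeR adjusted p = 0.00021, lower in 4 of 4 animals) and Paneth over TA -1.29 (SE 0.31, edgeR adjusted p = 0.012, lower in 4 of 4), the last not passing without BO57 (adjusted p = 0.075). Stem over TA was 1.15 (SE 0.29) and just missed by edgeR (adjusted p = 0.052), while DESeq2 called it (adjusted p = 0.0022), as did edgeR without the filter on low counts (0.041). In 1 edgeR fit of all 24 libraries its adjusted p was 0.36, and without BO57 it passed, at 1.57 (edgeR adjusted p = 0.028). In het animals Btc was at 2.28, 11.2, 0.146 and 8.72 CPM in Paneth libraries of BN44, BO27, BO58 and BP03, against 11.7, 20.2, 15.5 and 9.42 CPM in stem and 6.29, 12.8, 7.98 and 13.5 CPM in TA libraries. Het Paneth libraries spread from 4 counts in BO58 to 244 in BO27 and overlapped both other fractions. The het values, -1.32 for Paneth over stem (SE 0.84, edgeR adjusted p = 0.26), -0.85 for Paneth over TA (SE 0.85, edgeR adjusted p = 0.48) and 0.49 for stem over TA (SE 0.31, edgeR adjusted p = 0.44), did not pass.

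Hbegf, whose product is heparin-binding EGF-like growth factor, had a negative log2 fold change for Paneth libraries in all 4 contrasts. As fitted, 3 of the 4 passed. It was at 23.5, 15.8, 19.3 and 19.0 CPM in the hom Paneth libraries of BN45, BO25, BO57 and BP04, against 141.9, 39.5, 37.8 and 44.7 CPM in hom stem and 98.6, 16.4, 41.7 and 42.1 CPM in hom TA libraries. Every hom stem library exceeded every hom Paneth library, and the log2 fold change of -1.74 passed (SE 0.44, edgeR adjusted p = 0.015, lower in 4 of 4 animals). Paneth over TA in hom animals gave -1.33 (SE 0.45) and passed narrowly (edgeR adjusted p = 0.0499). It was lost with RLE size factors (adjusted p = 0.051), in 1 edgeR fit of all 24 libraries (0.18) and without BN45 (0.13), BO57 (0.13) or BP04 (0.12), and kept by DESeq2 (0.0072) and with the animal as replicate block (0.035). The het values were 23.9, 10.4, 7.56 and 14.0 CPM in the Paneth libraries of BN44, BO27, BO58 and BP03, against 183.6, 17.1, 20.5 and 20.5 CPM in stem and 153.2, 20.6, 33.0 and 41.2 CPM in TA libraries. All 4 het animals had their lowest value in the Paneth fraction. Paneth over TA was -2.13 (SE 0.61, edgeR adjusted p = 0.026) and was lost without BO58 (0.064) or BP03 (0.074). Paneth over stem was -2.08 (SE 0.78, edgeR adjusted p = 0.070), and with the animal as replicate block -1.37 (edgeR adjusted p = 0.048).

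Areg, which encodes amphiregulin, was lower in Paneth than in stem libraries of hom animals: 7.39, 2.32, 4.28 and 3.49 CPM in Paneth against 26.6, 18.6, 4.67 and 9.29 CPM in stem libraries (BN45, BO25, BO57, BP04). The pair from BO57 was nearly level, and the groups overlapped. The log2 fold change of -1.73 (SE 0.57) passed by edgeR with adjusted p = 0.044, and was lost with the animal as replicate block (adjusted p = 0.057) and without BN45 (0.078), BO25 (0.18) or BP04 (0.090). In hom TA libraries Areg was at 40.3, 6.73, 3.02 and 5.83 CPM, and Paneth over TA was -1.65 (SE 0.78, edgeR adjusted p = 0.14). The het values were 4.60, 2.71, 0.183 and 1.48 CPM in Paneth (BN44, BO27, BO58, BP03), against 87.4, 2.11, 1.92 and 2.80 CPM in het stem and 71.7, 0.939, 4.47 and 1.92 CPM in het TA libraries. A single animal, BN44, set the het stem and TA means, and the log2 fold changes of -3.37 over stem (SE 1.37, edgeR adjusted p = 0.090) and -3.12 over TA (SE 1.34, edgeR adjusted p = 0.10) did not pass.

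Tgfa, which encodes transforming growth factor alpha, gave no called difference between fractions. All 24 libraries lay between 4.25 and 20.1 CPM, with hom Paneth libraries at 20.1, 8.80, 7.14 and 7.66 CPM in BN45, BO25, BO57 and BP04 and het Paneth libraries at 9.81, 14.0, 10.2 and 16.3 CPM in BN44, BO27, BO58 and BP03. No fraction contrast of Tgfa passed by edgeR. The largest, Paneth over stem in het animals, was 0.77 (SE 0.34, adjusted p = 0.12), and the direction over TA turned with the scaling. Ereg, which encodes epiregulin, had 0 counts in 13 of 24 libraries and 504 counts in all. A count of 0 allows up to 3 counts, worth between 0.0524 and 0.238 CPM in these libraries, for counting error only. Its highest values were 2.83 CPM in the hom stem library of BO25, 2.41 CPM in the hom Paneth library of BP04 and 2.27 CPM in the het stem library of BN44. Ereg passed the filter on low counts in no comparison of fractions.

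Among the receptors, Egfr was lower in Paneth libraries of het animals, and Erbb2 and Erbb3 passed in no contrast of fractions as fitted. Egfr was at 12.2, 21.5, 15.6 and 16.8 CPM in het Paneth libraries of BN44, BO27, BO58 and BP03, against 27.3, 22.3, 38.9 and 31.5 CPM in het stem and 29.6, 28.8, 28.7 and 28.5 CPM in het TA libraries. Het Paneth values lay below all het stem and TA values. The log2 fold changes were -0.83 over stem (SE 0.25, edgeR adjusted p = 0.032) and -0.79 over TA (SE 0.21, edgeR adjusted p = 0.020), lower in 4 of 4 animals each. The call over stem was lost with the animal as replicate block (adjusted p = 0.065), and both calls were lost by edgeR without BN44 (0.12 over stem, 0.089 over TA), BO58 (0.12 and 0.058) or BP03 (0.12 and 0.093). In hom animals Egfr was at 11.2, 8.68, 23.7 and 26.0 CPM in Paneth libraries of BN45, BO25, BO57 and BP04, against 22.5, 33.9, 33.7 and 28.4 CPM in stem and 24.4, 22.9, 27.1 and 16.9 CPM in TA libraries. The Paneth libraries of BO57 and BP04 fell within the range of the other fractions, and neither -0.74 over stem (SE 0.34, edgeR adjusted p = 0.12) nor -0.38 over TA (SE 0.34, edgeR adjusted p = 0.44) passed.

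Erbb2, the receptor gene without a known ligand, was at 12.4, 22.5, 8.76 and 18.4 CPM in hom Paneth libraries of BN45, BO25, BO57 and BP04, against 28.2, 32.4, 20.3 and 23.8 CPM in stem and 31.5, 39.4, 20.9 and 23.5 CPM in TA libraries. It was at 17.5, 8.18, 10.5 and 22.9 CPM in het Paneth (BN44, BO27, BO58, BP03), against 27.4, 34.6, 26.3 and 25.2 CPM in stem and 30.2, 30.6, 27.4 and 22.1 CPM in TA libraries. The Paneth library was the lowest of its animal in 7 of 8 animals, the exception being BP03. Log2 fold changes of Paneth over stem were -0.73 in hom (SE 0.30) and -0.91 in het (SE 0.33), and over TA -0.87 in hom (SE 0.32) and -0.88 in het (SE 0.32). None of the 4 passed by edgeR, with adjusted p = 0.096, 0.061, 0.064 and 0.066 in that order. With the animal as replicate block both hom values passed by edgeR, -0.78 over stem (adjusted p = 0.041) and -0.91 over TA (0.022). DESeq2 called 3 of the 4, over TA in hom (adjusted p = 0.032) and over stem and TA in het animals (0.036 and 0.041). Without BP03 both het values passed by edgeR, at -1.27 over stem (adjusted p = 0.042) and -1.26 over TA (0.040).

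Erbb3, which binds neuregulins, was the steadiest of the 9 genes. Over all 24 libraries its log2 level had a root mean square spread of 0.19, against 0.48 for Tgfa, 0.51 for Egfr and 0.58 for Erbb2, and 1.16 to 1.70 for Hbegf, Btc, Egf and Areg. Its level averaged 84.9 ± 5.41 CPM in hom Paneth, 86.1 ± 14.6 in het Paneth, 95.2 ± 14.1 in hom stem, 89.9 ± 10.1 in het stem, 90.5 ± 9.13 in hom TA and 84.2 ± 18.6 in het TA libraries (SD, n = 4 each). The log2 fold changes of Paneth over stem and TA lay between -0.13 and 0.05, and their direction over TA in het animals turned with the filter and the scaling: on raw library totals all 4 were negative, between -0.76 and -0.46, and none passed (edgeR adjusted p between 0.077 and 0.18).

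**Figure D3:**
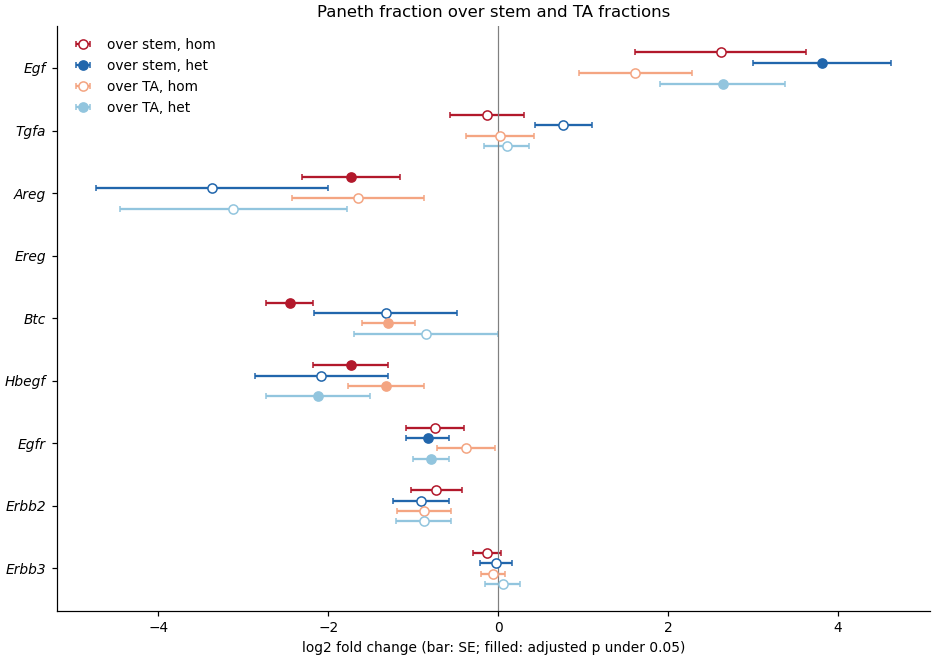
Log2 fold change of the Paneth fraction over the stem and TA fractions for each gene in hom (red shades) and het (blue shades) animals, with the SE as bar and filled points where the edgeR adjusted p was under 0.05. Egf lies to the right of 0 in all 4 contrasts and Areg, Btc, Hbegf, Egfr and Erbb2 to the left; Ereg was not tested.

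Counted over the family, 8 of the 9 genes could be tested in each comparison of fractions. For Paneth over stem, 0 members were higher and 3 lower in hom animals (Areg, Btc and Hbegf), where 30.5% of all 16226 genes tested were called, and 1 was higher and 1 lower in het animals (Egf and Egfr), where 28.3% of 16230 were called. For Paneth over TA, 0 were higher and 2 lower in hom animals (Btc and Hbegf), against 28.5% of all genes called, and 1 was higher and 2 lower in het animals (Egf, and Hbegf and Egfr), against 29.2%. These shares of members, higher and lower together, are near the background. On raw library totals 4 of 8 were called in hom animals and 5 of 8 in het animals in both contrasts, a scaling under which the Paneth log2 fold changes of all genes shift downwards. Of all genes, 4839 over stem and 4849 over TA were then called in hom animals, against 4955 and 4608 as fitted. In het animals 4945 and 4983 were called, against 4600 and 4721 as fitted. Of all genes called, 25.3% over stem and 22.1% over TA were then higher in hom Paneth libraries and 30.3% and 30.4% in het Paneth libraries, against 56.9%, 57.2%, 61.1% and 59.6% as fitted. Between stem and TA, 0 of 8 members passed by edgeR in hom animals, where 4.61% of all genes were called, and 0 of 8 in het animals, where 6.26% were called. In each, 1 member had an unadjusted p under 0.05 by edgeR (Btc in hom, Tgfa in het), as did 17.8% and 20.3% of all genes. DESeq2 called 1 member in hom (Btc) and 0 in het animals, and 1571 and 1958 of all genes.

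The comparison of hom with het animals asks whether the family differs between induced Setd1aFC/FC and Setd1aFC/+ animals. The share of cells that lost the gene was not measured in any fraction, so the comparison cannot say what loss of Setd1a does in each. No member passed in any fraction: 0 of 8 tested in Paneth libraries, 0 of 9 in stem libraries and 0 of 8 in TA libraries by edgeR, and 0 in each by DESeq2, which gave no adjusted p for Hbegf in stem and for Areg in TA libraries. Of all genes, 0% of 16108 were called by edgeR in Paneth (368 at an unadjusted p under 0.05, and 6 called by DESeq2), 0.0125% of 16056 in stem (the 2 genes Rps13-ps2 and Cbr4, with 1081 at an unadjusted p under 0.05, and 184 called by DESeq2) and 0% of 15925 in TA libraries (942 at an unadjusted p under 0.05, and 72 called by DESeq2). Across the family, 1 gene had an unadjusted p under 0.05, Btc in stem libraries. It was at 27.5, 35.8, 18.8 and 24.4 CPM in hom stem libraries against 11.7, 20.2, 15.5 and 9.42 CPM in het stem libraries. The lowest hom library, BO57, lay below the highest het library, BO27, so the groups overlapped. The log2 fold change was 0.90 (SE 0.28, edgeR unadjusted p = 0.010, adjusted p = 0.51). In the other fractions Btc gave -0.22 in Paneth (SE 0.86) and 0.25 in TA libraries (SE 0.32). The next smallest p in stem libraries was that of Tgfa, at 16.0, 14.6, 6.39 and 12.6 CPM in hom against 10.3, 4.25, 7.17 and 8.41 CPM in het libraries, with a log2 fold change of 0.71 (SE 0.34, edgeR adjusted p = 0.78). The receptors differed by little: in the 3 fractions Erbb3 lay between -0.02 and 0.11, Erbb2 between -0.12 and 0.07, and Egfr between -0.33 (SE 0.16, TA, edgeR adjusted p = 0.89) and 0.07. The SEs of Areg, from 0.81 to 1.26, and of Ereg, 1.78, leave large changes undetectable with these libraries.

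**Figure D4:**
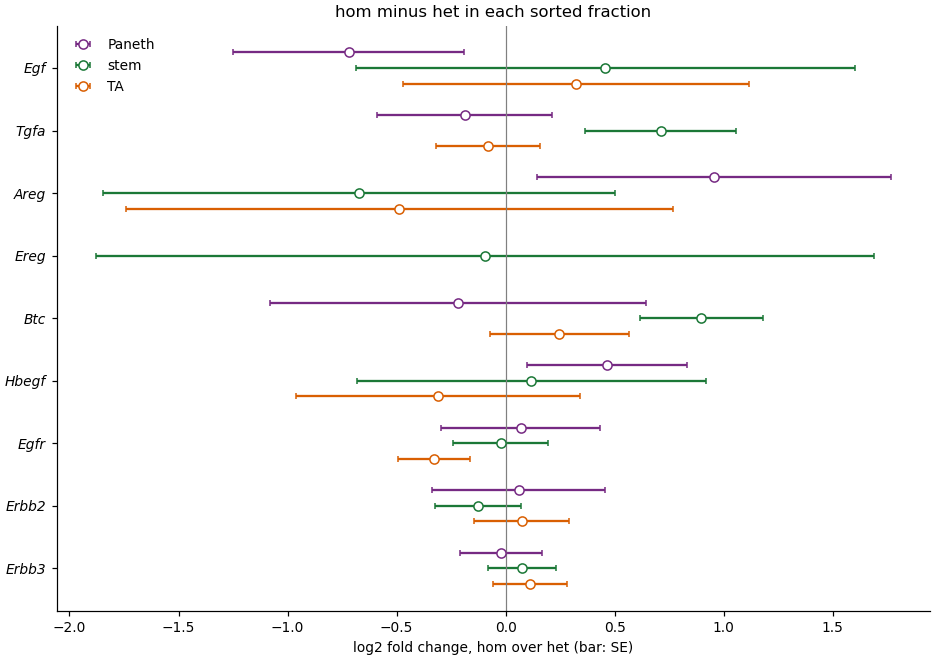
Log2 fold change of hom over het libraries in the Paneth, stem and TA fractions, with the SE as bar. All points are open because no adjusted p was under 0.05, and the bars of Areg and Egf are several times wider than those of Erbb3.

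Tests of whether the genotype effect differs between fractions gave 0 of 9 members for stem minus TA, for stem minus Paneth and for Paneth minus TA, by edgeR and by DESeq2, with 0 members at an unadjusted p under 0.05. Over all 19396 genes in that fit edgeR called 0% for stem minus TA (767 at an unadjusted p under 0.05, and 14 called by DESeq2), 0% for stem minus Paneth (1219, and 48 by DESeq2) and 0.00516% for Paneth minus TA (1 gene, Cyp2c55). These single genes were named after their values were seen.

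Areg and Hbegf differed widely between animals of 1 genotype. In stem and TA libraries the highest hom animal was BN45 for both genes and the highest het animal was BN44. In het stem libraries Areg was at 87.4 CPM in BN44, against 1.92 to 2.80 CPM in the 3 other het animals, and Hbegf at 183.6 CPM against 17.1 to 20.5 CPM. In het TA libraries Areg was at 71.7 CPM in BN44, against 0.939 to 4.47 CPM, and Hbegf at 153.2 CPM against 20.6 to 41.2 CPM. BN45 stood less far apart: in hom stem libraries Areg was at 26.6 CPM in it, against 4.67 to 18.6 CPM in the 3 other hom animals, and Hbegf at 141.9 CPM against 37.8 to 44.7 CPM. In hom TA libraries Areg was at 40.3 CPM in BN45, against 3.02 to 6.73 CPM, and Hbegf at 98.6 CPM against 16.4 to 42.1 CPM. On the TMM scale the Paneth libraries of these animals were the highest of their genotype too. They were so by at most 1.73 times the next for Areg and 1.70 times for Hbegf. For BN45 that order depended on the scaling. Its Paneth library had the lowest TMM factor of all, 0.448. On raw library totals Hbegf was lowest there, at 10.5 CPM against 12.1 to 18.4 CPM in the other hom Paneth libraries. Areg was at 3.31 CPM there, below BO57 at 4.07 CPM. BN44 stayed the highest het Paneth library on raw totals, at 3.06 CPM for Areg and 15.8 CPM for Hbegf. Egf, at low levels, had the same order in stem and TA libraries: BN45 led the hom animals at 2.37 and 3.59 CPM and BN44 the het animals at 1.21 and 3.19 CPM. Btc, Egfr, Erbb2 and Erbb3 did not have it in all 4 of these groups, and the labels do not say what the letters BN stand for.

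With BN45 and BN44 both left out, the hom and het stem libraries no longer overlapped for either gene. This setting was chosen after seeing the data, in which those animals stood apart for these same genes. How many of all genes separate in this way was not counted. Of all genes, 0 were called by edgeR for hom over het in stem libraries under this setting. Areg was then at 4.67 to 18.6 CPM in 3 hom stem libraries against 1.92 to 2.80 CPM in 3 het stem libraries, and its log2 fold change turned to 2.25 (edgeR adjusted p = 0.38) where all 8 libraries had given -0.67 (SE 1.17, edgeR adjusted p = 0.97). Hbegf was at 37.8 to 44.7 CPM in hom against 17.1 to 20.5 CPM in het, with 1.06 (edgeR adjusted p = 0.30) where all 8 had given 0.12 (SE 0.80, edgeR adjusted p = 0.99). Neither passed either way. In TA libraries the same setting gave 1.09 for Areg (edgeR adjusted p = 0.95) and 0.08 for Hbegf (1.00), against -0.49 (SE 1.26) and -0.31 (SE 0.65) with all 8 libraries.

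The 3 genes whose pattern over the 24 libraries was most like a member's, by the root mean square difference of log2 levels centred on each gene's mean, were found among 9267 genes. For Areg they were Hbegf (0.88), Egr2 (0.91) and Dusp1 (0.94), and for Hbegf they were Pmaip1 (0.47), Dusp1 (0.54) and Ier2 (0.57). Egr2 and Ier2 are immediate early genes and Dusp1 encodes a phosphatase of MAP kinases that is induced in the same way; Pmaip1 encodes the apoptosis protein NOXA. Dusp1 was at 398.3 CPM in the hom stem library of BN45, against 101.2 to 162 CPM in the 3 other hom animals, and at 454 CPM in the het stem library of BN44, against 31.4 to 60.6 CPM. Fos, on the list of ERK target genes, was at 824 and 831 CPM in the hom stem and TA libraries of BN45, against at most 273 CPM in the other hom stem and TA libraries, and at 1065 and 923 CPM in those of BN44, against at most 286 CPM. Unlike Areg and Hbegf, Fos was also far apart in the Paneth libraries, at 774 CPM in BN45 against 138 to 203 CPM, and at 657 CPM in BN44 against 124 to 202 CPM. Summed over the 9 ERK target genes, the BN library was the highest of its 4 in all 6 groups. Fos alone was the larger part of each of these BN sums, which were 1557, 1333 and 1125 CPM in the stem, TA and Paneth libraries of BN45. In those of BN44 they were 1893, 1515 and 1049 CPM. What sets these 2 animals apart was not tested.

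**Figure D5:**
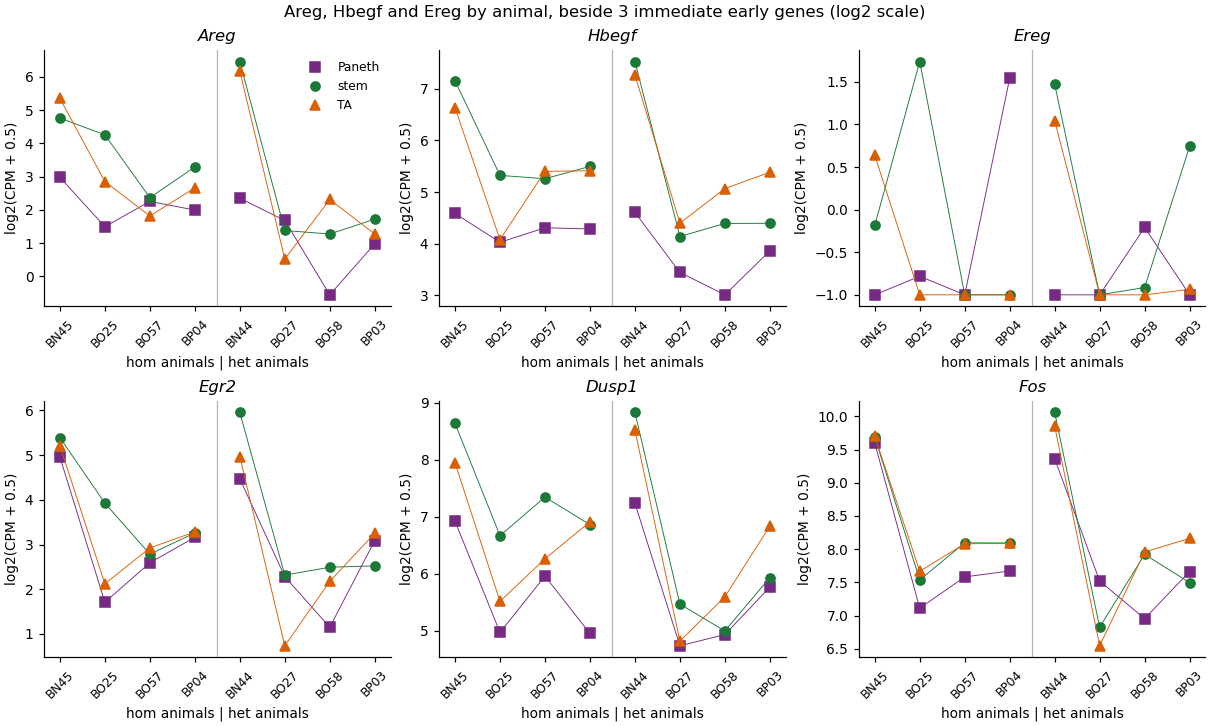
Level in each animal as log2(CPM + 0.5) of Areg, Hbegf and Ereg (above) and of Egr2, Dusp1 and Fos (below), hom animals left of the line and het animals right of it, by fraction. BN45 and BN44 are the highest stem and TA points of their genotype in every panel except Ereg, whose highest hom stem point is BO25 at 2.83 CPM.

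Egf was most like Tspan1 (0.63), Npdc1 (0.70) and Rab3d (0.70), and Tspan1 was highest in Paneth libraries, at 463 ± 135 CPM in hom and 455 ± 126 in het, against 65.1 ± 22.2 in hom stem, 70.5 ± 12.9 in het stem, 142 ± 59.5 in hom TA and 167 ± 51.7 CPM in het TA libraries (SD, n = 4 each). Rab3d encodes a small GTPase of secretory granules. For Btc the nearest were Kif15 (0.63), a mitotic kinesin gene, Utp20 (0.64) and Tube1 (0.69). Tgfa was most like Tgoln1 (0.40), Sft2d2 (0.40) and Gpalpp1 (0.41), Egfr like Med4 (0.29), Topbp1 (0.32) and Pa2g4 (0.32), Erbb2 like Cldn15 (0.32), Usp10 (0.32) and Ano9 (0.32), and Erbb3 like N4bp2l2 (0.16), Zc3h15 (0.18) and Eif3c (0.18). A small difference for a steady gene such as Erbb3 says chiefly that both genes vary little.

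Of the rest of the family, Erbb4 and the neuregulin genes Nrg1, Nrg2 and Nrg3 were at or below 0.582 CPM in every library and Epgn at or below 3.67 CPM, and in the comparisons of fractions and of genotypes, which hold 8 libraries each, Nrg4, a neuregulin gene whose product binds ERBB4, was the gene of these 6 that passed the filter on low counts. Nrg4 was at 10.7, 19.5, 24.3 and 22.1 CPM in hom stem libraries (BN45, BO25, BO57, BP04), against 3.85, 4.03, 4.66 and 6.43 CPM in hom TA libraries, and at 11.4, 16.3, 14.6 and 19.1 CPM in het stem libraries (BN44, BO27, BO58, BP03), against 5.31, 3.56, 3.69 and 6.01 CPM in het TA libraries. Stem and TA libraries did not overlap in either genotype. Stem over TA gave log2 fold changes of 2.00 in hom (SE 0.30, edgeR adjusted p = 0.0062) and 1.72 in het animals (SE 0.25, adjusted p = 0.0045), and Paneth over stem -1.78 in hom (SE 0.29, adjusted p = 0.0016) and -1.25 in het animals (SE 0.32, adjusted p = 0.014). Goblet markers were lowest in the stem libraries, where Nrg4, and Btc in hom animals, were highest, and their part was not tested.

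The genes that handle the ligands and carry the signal onward were counted from lists. Of 6 tested shedding genes, Rhbdf1, which encodes an inactive rhomboid that brings ADAM17 to the surface, was higher in Paneth libraries, by 1.26 over stem and 2.05 over TA in hom and by 1.25 and 2.03 in het animals on the log2 scale (edgeR adjusted p = 0.021, 0.0011, 0.018 and 0.00067), and no other passed; the medians of the list were -0.04 and -0.34 in hom and 0.42 and -0.11 in het animals. Of 16 adaptor and RAS-ERK genes, 4 were higher and 0 lower over stem and 4 and 0 over TA in hom Paneth libraries, and 7 and 0 over stem and 8 and 0 over TA in het Paneth libraries. Mapk3, which encodes ERK1, and Sos2, a guanine nucleotide exchange factor gene for RAS, passed in all 4, Mapk3 by 1.99 and 1.18 in hom and by 2.26 and 1.44 in het animals on the log2 scale over stem and TA. The list medians were 0.35 over stem and 0.35 over TA in hom, and 0.47 and 0.58 in het animals, beside medians of 0.06, 0.08, 0.05 and 0.08 over all genes tested. Of the PI3K-AKT genes, 2 of 9 were higher over stem and 1 of 10 over TA in hom and 2 of 9 and 3 of 9 in het Paneth libraries, with 0 lower, Pdpk1 in each; the medians were 0.45 and 0.32 in hom and 0.56 and 0.49 in het animals.

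Genes that restrain the receptors were also counted. In hom Paneth libraries 6 of 17 tested were higher over stem and 3 of 17 over TA with 0 lower, and in het Paneth libraries 4 of 16 were higher and 1 lower over stem and 4 of 16 higher and 0 lower over TA. The medians of the list were 1.18 over stem and 0.51 over TA in hom and 0.08 and 0.48 in het animals. Cblb, a ubiquitin ligase gene of the receptor-degrading CBL family, and Ptprj, a receptor phosphatase gene, passed in all 4. Cblb was higher by 2.63 over stem and 2.24 over TA in hom animals and by 2.50 and 2.90 in het animals on the log2 scale. The lower gene was Lrig1, an ERBB inhibitor gene known in stem cells, at -0.99 for het Paneth over stem (SE 0.23, edgeR adjusted p = 0.0091), and in hom animals it was at -0.94 (SE 0.37, edgeR adjusted p = 0.080). Stem over TA was 1.09 in hom (SE 0.33), which did not pass (edgeR adjusted p = 0.10), and 1.12 in het animals (SE 0.19, edgeR adjusted p = 0.0081). Of 8 tested ERK target genes, 1 was higher and 1 lower over stem and 3 and 3 over TA in hom Paneth libraries, and 3 and 2 over stem and 3 and 2 over TA in het Paneth libraries, with medians of -0.44, -0.23, -0.44 and -0.29. Phlda1 was higher in all 4 contrasts and Myc lower in all 4, by -1.75 over stem and -0.83 over TA in hom and by -2.02 and -1.25 in het animals. The ETS factor genes Etv4 and Etv5 were higher over TA in both genotypes, Etv4 by 3.55 in hom (edgeR adjusted p = 0.015) and 3.35 in het animals (0.026). In every one of these lists, 0 genes passed for hom over het in any fraction by edgeR. The shares called between fractions are to be read beside the 28.3% to 30.5% of all genes called there, higher and lower together. Of the 16161 to 16230 genes tested, 2819 were higher and 2136 lower over stem in hom Paneth libraries, and 2635 and 1973 over TA. In het Paneth libraries 2809 were higher and 1791 lower over stem, and 2813 and 1908 over TA. The shares are also to be read beside the enteroendocrine, tuft and goblet transcripts in the Paneth libraries, whose part was not tested.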

How the data were processed

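The authors deposited raw counts of fragments per gene, made per the file header and the submitters' processing notes with bcl2fastq 2.20.0 and featureCounts 2.0.1 (no strand, mapping quality of at least 1, Ensembl annotation on mm10). No source used here gives the aligner's version. Without strand, reads of a gene and of an overlapping antisense gene cannot be told apart. The 92 spike-in rows, with at most 6 counts in a library, were left out. Totals of 24.73 to 47.05 M counts per library set the counting precision. Each comparison was fitted on all genes with edgeR 4.0.16 (filterByExpr, TMM, quasi-likelihood F test, R 4.3.3), with Benjamini-Hochberg adjustment and a threshold of 0.05, and the scripts were tested on simulated data. Comparisons between fractions and between genotypes used 8 libraries each, and differences of genotype effects used all 24. Levels are CPM on 1 TMM scaling of the 24 libraries. Alternatives were DESeq2 1.42.0, RLE size factors, no filter, 1 fit of all libraries, a replicate block, each animal left out and, added after seeing the data, raw library totals and BN44 with BN45 left out. Fractions are paired by origin, because they come from the same animal. The same animal's libraries deviated together with a median correlation of 0.136, against -0.045 for different animals. The main fits held no term for the animal, including those of all 24 libraries for differences of genotype effects. Pairing entered only through the replicate block by animal, so results given as fitted leave it out. The genes named are the 9 members and, for each with a mean of at least 1 CPM, the 3 genes with the smallest root mean square difference of log2(CPM + 0.5) among genes with a mean of at least 5 CPM; pathway genes come from lists. The members and lists were chosen with earlier results of these data known. The labels name separate animals as replicates.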

Additional observations from a re-analysis of the deposited data

Results flagged for a closer look

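In 13 of 54 groups of 4 libraries, 1 library stood far from the other 3 by Dixon's criterion. Its rate of about 1 in 20 holds for independent values of normal distribution. Here CPM without a log were used and the 54 groups share the same libraries, so 13 of 54 cannot be set against that rate. Where 3 of the 4 libraries were at 0, as for Ereg in hom TA and het Paneth libraries, any other value meets the criterion. For Areg these were the het stem library of BN44 at 87.4 CPM, the hom TA library of BN45 at 40.3 CPM and the het TA library of BN44 at 71.7 CPM. For Hbegf they were the hom stem library of BN45 at 141.9 CPM and the het stem and TA libraries of BN44 at 183.6 and 153.2 CPM. For Ereg, whose other libraries in these groups were at or near 0, they were the hom Paneth library of BP04 at 2.41 CPM, the het Paneth library of BO58 at 0.365 CPM, the hom stem library of BO25 at 2.83 CPM, the hom TA library of BN45 at 1.06 CPM and the het TA library of BN44 at 1.56 CPM. Tgfa was high in the hom Paneth library of BN45, at 20.1 CPM. That library had the lowest TMM factor, 0.448. On raw library totals Tgfa was at 9.01 CPM there, against 6.04 to 6.80 CPM in the other hom Paneth libraries, so the size of this gap depended on the scaling. Erbb3 was low in the hom stem library of BO57, at 74.3 CPM. Of the 13, 9 were libraries of BN44 or BN45.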

How the results depend on the processing

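No member passed for hom over het in any fraction, nor in a test of the difference of genotype effects, by edgeR, by DESeq2 or under any other setting run. The setting that moved all Paneth values together was raw library totals, under which the median log2 fold change of all genes shifted by -0.63 over stem and -0.66 over TA in hom and by -0.51 and -0.49 in het animals, and by -0.17 for hom over het in Paneth libraries. Without the filter on low counts these medians shifted by 0.42 and 0.41 in hom and by 0.80 and 0.87 in het animals. There the medians are taken over a larger set of genes that includes the low-count ones, so they are not a shift of the same genes. Levels moved by more than 1 SD on raw totals in 9 of 54 gene and group pairs, 4 of them of Erbb3, 2 of Erbb2 and 1 each of Btc, Hbegf and Egfr. The cause of the other changes listed here was not tested.

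Members called over TA in Paneth libraries numbered 2 in hom animals as fitted, where 4608 of all genes were called. They numbered 1 with RLE size factors (4578 of all genes) and 1 in 1 fit of all 24 libraries (5227). By DESeq2 (5573), with the animal as replicate block (4839) and on raw totals (4849) they numbered 4. In het animals they numbered 3 (4721 of all genes), against 5 without the filter (5639) and 5 on raw totals (4983). Over stem in het animals 2 members were called as fitted (4600 of all genes). Without the filter 5 were called (5691), in 1 fit of all libraries 4 (6606) and on raw totals 5 (4945). More genes are tested without the filter and in 1 fit of all libraries, 19396 in the latter, against 16230 for het Paneth over stem as fitted. Shares of all genes called were not computed for these settings. The counts of members under them therefore cannot be set against the background. Between stem and TA in hom animals, 1 member, Btc, was called with RLE size factors, without the filter and by DESeq2. Of all genes, these settings called 730, 701 and 1571, against 736 as fitted. The replicate block changed no other member's call than those given beside the results.

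Of all genes, DESeq2 called 184 for hom over het in stem, 72 in TA and 6 in Paneth libraries, and 1 fit of all 24 libraries called 8, 1 and 2. The replicate block by ID letters called 2 in TA. In Paneth libraries 8 were called without the filter and 2 on raw totals, and in stem libraries 0 without BN44 and BN45. Between stem and TA, DESeq2 called 1571 in hom and 1958 in het animals and the replicate block by animal 1427 and 1848, against 736 and 1013 as fitted. For the differences of genotype effects DESeq2 called 14 for stem minus TA, 48 for stem minus Paneth and 23 for Paneth minus TA; stem minus Paneth gave 1 without the filter and 2 with the replicate block, and Paneth minus TA 0 without BN44 and BN45.

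Some small fold changes changed sign. With the replicate block by ID letters, hom over het became 1.38 for Areg and 0.81 for Ereg in stem and 0.60 for Areg in TA libraries. The letters are not stated to mark a batch. Libraries that share letters across genotypes correlated with a median of 0.087, over 0.1 in 8 of 18 pairs. Those with other letters had a median of -0.057, over 0.1 in 0 of 30 pairs. Without BN44 and BN45 it became -0.20 for Egf, 2.25 for Areg and 0.045 for Egfr in stem, and 0.013 for Tgfa, 1.09 for Areg and 0.083 for Hbegf in TA libraries. On raw totals it became -0.017 for Egfr and -0.039 for Erbb2 in Paneth libraries. On that scale Hbegf in het stem over TA became 0.010, and in Paneth over TA Tgfa became -0.84 in hom and -0.40 in het and Erbb3 -0.46 in het animals. Without the filter Erbb3 became -0.0029 in het and Tgfa -0.066 in hom Paneth over TA, and Tgfa in the same contrast became -0.040 in 1 fit of all libraries and -0.13 with the replicate block by animal.

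With each animal left out in turn, hom over het in stem libraries ranged from -1.12 to 2.69 for Areg, -2.72 to 1.03 for Ereg, -0.72 to 0.97 for Egf, -0.59 to 1.75 for Hbegf and -0.14 to 0.12 for Egfr. In TA libraries it ranged from -1.91 to 2.51 for Areg, -0.88 to 0.66 for Hbegf, -0.27 to 1.07 for Egf, -0.20 to 0.058 for Tgfa, -0.12 to 0.20 for Erbb2 and -0.040 to 0.41 for Btc. In Paneth libraries it ranged from -0.18 to 0.29 for Egfr, -0.17 to 0.34 for Erbb2, -0.63 to 0.36 for Btc and -0.14 to 0.053 for Erbb3. The positive ends for Areg in stem and TA libraries, 2.69 and 2.51, were without BN44, as was 1.75 for Hbegf in stem libraries.

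Stem over TA in hom animals ranged from -0.15 to 0.46 for Tgfa, -0.0016 to 0.11 for Erbb3 and -0.28 to 1.06 for Areg. In het animals it ranged from -0.10 to 0.31 for Areg, -0.0074 to 0.11 for Erbb2, -0.71 to 0.10 for Hbegf and -0.10 to 0.18 for Egfr. Paneth over TA ranged from -0.65 to 0.26 for Tgfa in hom, and from -0.011 to 0.15 for Tgfa and -0.081 to 0.15 for Erbb3 in het animals. Paneth over stem ranged from -0.50 to 0.069 for Tgfa in hom and from -0.15 to 0.052 for Erbb3 in het animals.

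Members called ranged from 0 to 2 over TA in hom Paneth libraries (0 without BO57), 0 to 2 in het (0 without BO58), 1 to 2 over stem in het (1 without BN44 or BO58) and 0 to 1 for hom stem over TA (1, Btc, without BO57). All genes called ranged from 0 to 3 for hom over het in stem, 184 to 417 for hom and 249 to 801 for het stem over TA, 2490 to 3657 for hom and 2810 to 4259 for het Paneth over TA, and 3224 to 4086 for hom and 2870 to 4137 for het Paneth over stem. For differences of genotype effects they ranged from 0 to 1 for stem minus TA and 0 to 2 for Paneth minus TA. Ereg had 0 to 129 counts in hom and 0 to 130 counts in het stem libraries.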
